A study of Mus musculus with 4 samples.

Results

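Ankrd37, Egln3, P4ha1, Bnip3, Ndrg1, Vegfa, Slc2a1, Hk2, Pgk1 and Ldha are mouse genes of the transcriptional response to low oxygen and of glycolysis. They were chosen by name, as 10 of the 54456 gene symbols in the deposited matrices, and each symbol matched 1 gene identifier. Their transcripts were counted as unique molecular identifiers (UMIs, each standing for 1 captured RNA molecule) in single cells of the liver's non-parenchymal fraction, which holds endothelial and immune cells and few hepatocytes. The mice were C57BL/6J, aged 30 weeks. The livers were taken fresh, dissociated with enzymes in a gentleMACS device, freed of red cells and dead cells, and sequenced with the 10x Genomics 3′ version 3 chemistry. The 4 groups, named as in the labels, had 1 library each: HFD_EXE (replicate 5), HFD_sed (replicate 2), E (replicate 1) and S (replicate 1). HFD stands for high fat diet; EXE and sed are taken here to mean exercised and sedentary mice, and S carries neither HFD nor exercise in its name. The matrices of HFD_EXE, HFD_sed and S were analysed, and that of E was not analysed here. How many mice stand behind a library is not given in the labels.

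When oxygen is scarce, prolyl hydroxylases of the Egln family no longer mark the alpha subunits of the hypoxia-inducible factors for destruction by the von Hippel-Lindau protein. The stabilised factors bind short promoter and enhancer elements and switch on genes for glucose uptake, glycolysis, new vessels and mitochondrial turnover. In the liver, blood loses oxygen on its way from the portal tract to the central vein, and several of these genes are also known to be induced by inflammatory signals, without low oxygen, in myeloid cells.

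The core letters of the element bound by hypoxia-inducible factors are usually written ACGTG or GCGTG. RefSeq, on build GRCm38.p6, had promoters (250 bases before to 50 bases after the start of transcription) for 9 of the 10 genes and none for Ndrg1. Ldha and Vegfa had 2 entries each, which makes 11 promoters. On either strand, ACGTG was in 9 of the 11 and GCGTG in 7 of the 11, against 19.6% and 32.4% of all 32851 RefSeq promoters of that length. Either pattern was in 10 of the 11, against 43.8% of all promoters; the exception was 1 of the 2 Vegfa entries. These are matches of letters, not measured binding. The UMIs were counted on build GRCm39, so the coordinates below are not those of the count tables. The 250 bases before the start are printed 5′ to 3′ on the gene's own strand for 5 genes whose values carry the results below, with ACGTG and GCGTG of either strand in capitals. They are Ankrd37 at chr8:45999851-46000100 (minus strand), Egln3 at chr12:54203875-54204124 (minus strand), Slc2a1 at chr4:119108495-119108744 (plus strand), Hk2 at chr6:82774455-82774704 (minus strand) and Pgk1 at chrX:106186850-106187099 (plus strand).
Ankrd37: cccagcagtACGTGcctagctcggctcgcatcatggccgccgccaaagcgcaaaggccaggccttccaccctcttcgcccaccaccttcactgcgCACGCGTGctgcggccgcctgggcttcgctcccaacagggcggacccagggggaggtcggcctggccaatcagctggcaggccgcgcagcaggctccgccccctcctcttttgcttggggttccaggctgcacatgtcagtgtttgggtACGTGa
Egln3: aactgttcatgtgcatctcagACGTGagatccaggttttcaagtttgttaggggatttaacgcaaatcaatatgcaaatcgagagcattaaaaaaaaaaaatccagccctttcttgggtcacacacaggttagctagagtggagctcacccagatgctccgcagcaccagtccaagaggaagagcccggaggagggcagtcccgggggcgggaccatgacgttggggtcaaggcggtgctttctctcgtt
Slc2a1: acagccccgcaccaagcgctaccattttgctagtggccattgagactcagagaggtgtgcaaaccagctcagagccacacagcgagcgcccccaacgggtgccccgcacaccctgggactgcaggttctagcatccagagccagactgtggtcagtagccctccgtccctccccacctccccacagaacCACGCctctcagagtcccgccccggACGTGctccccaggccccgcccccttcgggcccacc
Hk2: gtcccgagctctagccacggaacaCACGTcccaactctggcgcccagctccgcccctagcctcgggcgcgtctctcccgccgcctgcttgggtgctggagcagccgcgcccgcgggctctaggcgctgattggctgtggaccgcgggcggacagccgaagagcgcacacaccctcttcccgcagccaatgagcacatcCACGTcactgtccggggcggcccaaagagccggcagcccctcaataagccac
Pgk1: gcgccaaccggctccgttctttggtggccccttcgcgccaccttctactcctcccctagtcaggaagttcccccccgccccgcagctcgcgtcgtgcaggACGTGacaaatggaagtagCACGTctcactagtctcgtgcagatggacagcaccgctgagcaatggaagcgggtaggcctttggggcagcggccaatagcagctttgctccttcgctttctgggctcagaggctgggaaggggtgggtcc
The Ankrd37 stretch held ACGTG starting at -241 and at -6, counted back from the start, and an overlapping pair of GCGTG matches between them. The Egln3 stretch held 1 match, at -229, and the Slc2a1 stretch held ACGTG at -36 and GCGTG on the other strand at -61.

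The matrices held 11280 barcodes in HFD_EXE, 11752 in HFD_sed and 11660 in S, where the labels put the number of captured cells at 5000 to 6000 per sample. They held 60901242 UMIs in HFD_EXE, 63456399 in HFD_sed and 84666844 in S. After filters on UMIs, genes, mitochondrial share and doublets, 10172 cells of HFD_EXE, 10740 of HFD_sed and 10212 of S remained, and any pair of libraries shared 29 to 46 barcodes. The cells were clustered without the 10 genes and named from fixed markers, which gave 8 cell classes with at least 100 cells in every library. These are liver sinusoidal endothelial cell (LSEC)-like, other vascular endothelium-like, Kupffer-like, monocyte-like (monocytes or monocyte-derived macrophages), neutrophil-like, conventional dendritic-like, T-like and B-like cells, called below by these names without the ending. LSECs numbered 5474 in HFD_EXE, 2482 in HFD_sed and 3228 in S. Levels are UMIs of a gene per 1000000 UMIs of the class in a library (CPM). With 1 library per group, no difference between groups could be tested. Intervals are exact 95% Poisson intervals, or binomial ones for ratios and shares, and cover counting error only, not the spread between animals. A ratio is called higher or lower here when it is at least 1.5-fold, its interval lies on that side of 1, and both libraries together hold at least 20 UMIs of the gene. This minimum can be reached through 1 library alone, so a gene low in both libraries drops out.

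In HFD_sed, the hypoxia response and glycolysis genes stood above their levels in HFD_EXE and in S in most classes. Of the 80 pairs of a gene and a class, the highest of the 3 libraries was HFD_EXE in 11, HFD_sed in 59 and S in 10. Ankrd37, Egln3 and P4ha1 were highest in HFD_sed in 8 of 8 classes. Ndrg1 did not share this order: it was highest in HFD_EXE in 8 of 8 classes. Hk2 was highest in S in 6 classes and in HFD_sed in 2. For HFD_EXE over HFD_sed, 73 pairs had enough UMIs, and 7 were called higher and 45 lower. The 7 higher ones were all Ndrg1. Among all measured genes, the share called higher was between 4.1% and 18.0% in a class, and the share called lower between 4.25% and 12.9%. For HFD_sed over S, 76 pairs had enough UMIs, and 46 were called higher and 4 lower. The shares over all genes were between 5.72% and 15.6% higher and between 5.55% and 18.3% lower. The comparisons share libraries, so each count is given for itself.

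**Figure D1:**
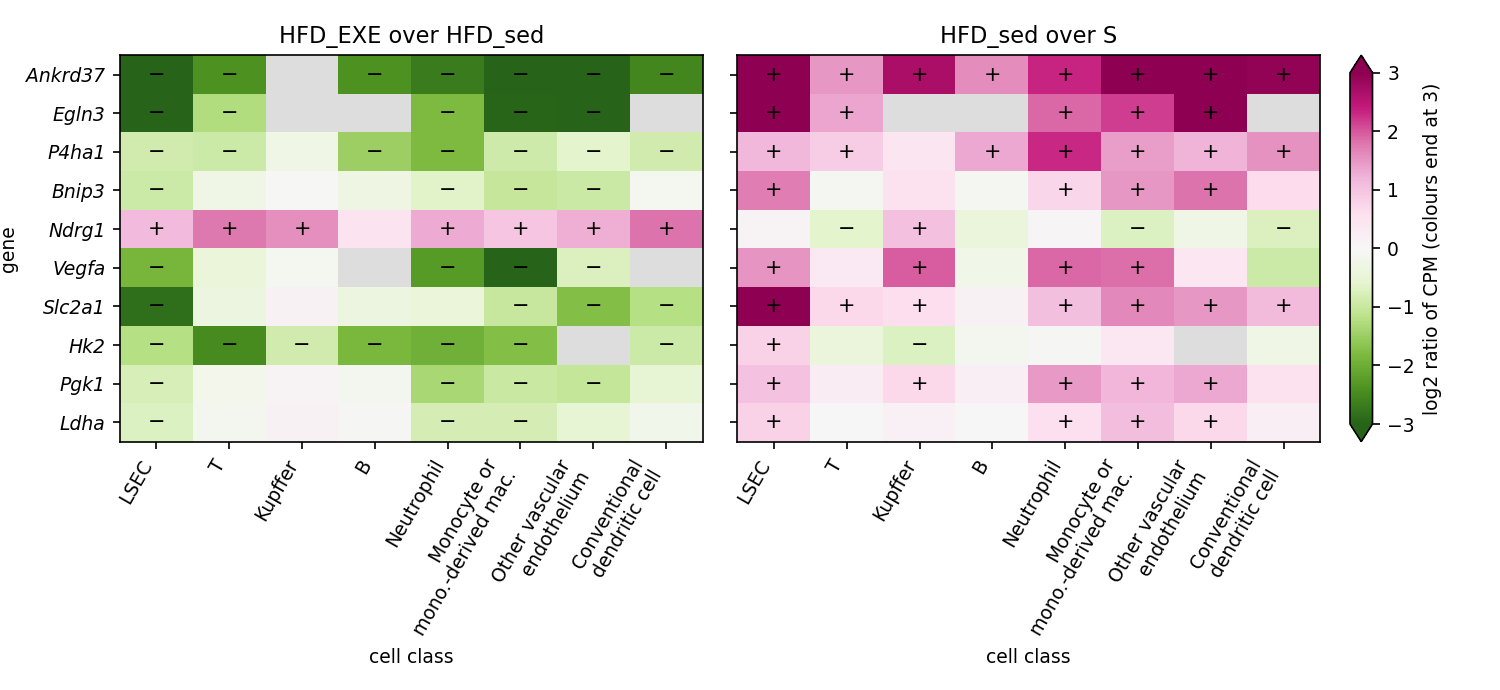
Log2 ratios of CPM for the 10 genes (rows) in 8 cell classes (columns), HFD_EXE over HFD_sed in the left panel and HFD_sed over S in the right panel, with 1 library per group. Colours end at 3, plus and minus signs mark ratios called higher or lower by at least 1.5-fold, and grey cells had too few UMIs; Ndrg1 is the row that runs against the other genes on the left.

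Egln3 encodes the oxygen-sensing prolyl hydroxylase PHD3, itself a target of the hypoxia-inducible factors and so part of a feedback loop. In LSECs it had 27 UMIs in HFD_EXE, 630 in HFD_sed and 16 in S. HFD_EXE thus had 0.888 CPM (95% interval 0.585 to 1.29), HFD_sed had 43.0 CPM (39.7 to 46.5) and S had 0.588 CPM (0.336 to 0.954). The HFD_sed value stood apart from both others, whose intervals overlapped. The log2 ratio was -5.60 (interval -6.21 to -5.04) for HFD_EXE over HFD_sed, a 48.4-fold lower level, and 6.19 (5.48 to 7.01) for HFD_sed over S, a 73.1-fold higher level. In other vascular endothelium, Egln3 had 5.47 CPM in HFD_EXE, 70.9 CPM in HFD_sed and 6.25 CPM in S. Neutrophils of HFD_EXE had 21.0 CPM (15.1 to 28.5), those of HFD_sed 73.6 CPM (59.4 to 90.1) and those of S 20.02 CPM (14.4 to 27.1). In monocytes the levels were 2.92, 23.0 and 5.12 CPM in HFD_EXE, HFD_sed and S. Neutrophils were the compared class with the most Egln3 in HFD_EXE and in S, whereas in HFD_sed the intervals of neutrophils and other vascular endothelium overlapped. T cells had 3.70, 8.83 and 3.45 CPM, Kupffer cells 0.391, 4.36 and 0.234 CPM, B cells 0, 2.84 and 0.692 CPM, and conventional dendritic cells 1.13, 1.53 and 1.07 CPM in HFD_EXE, HFD_sed and S. Egln3 was called in each of the 5 classes that had enough UMIs for it, lower for HFD_EXE over HFD_sed and higher for HFD_sed over S. Other vascular endothelium had 15, 97 and 6 UMIs and monocytes 4, 241 and 9 UMIs in HFD_EXE, HFD_sed and S. They reached the minimum of 20 through HFD_sed, so the filter itself favours this count.

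Ankrd37, an ankyrin repeat protein and a known target gene of hypoxia-inducible factor 1, had the same order of libraries. In LSECs it had 25 UMIs in HFD_EXE, 267 in HFD_sed and 10 in S, which were 0.822 CPM (0.532 to 1.21), 18.2 CPM (16.1 to 20.5) and 0.367 CPM (0.176 to 0.676). Its level was 22.2-fold lower in HFD_EXE than in HFD_sed and 49.6-fold higher in HFD_sed than in S. The highest levels were in monocytes, other vascular endothelium and neutrophils of HFD_sed. Monocytes had 3.66 CPM in HFD_EXE, 55.3 CPM in HFD_sed and 2.28 CPM in S. This was a 15.1-fold lower level in HFD_EXE than in HFD_sed and a 24.3-fold higher level in HFD_sed than in S. These folds rest on 5 UMIs in HFD_EXE and 4 in S, against 579 in HFD_sed, and are imprecise. Other vascular endothelium had 2.19 CPM in HFD_EXE, 50.5 CPM in HFD_sed and no UMI in S. The Poisson interval of this count of 0 reached up to 3.85 CPM. Set against a chosen floor of 3 UMIs (3.13 CPM), the HFD_sed level was 16.1-fold higher. This fold depends on the floor and is not a lower limit. B cells, which had little Egln3, had 6.59, 34.4 and 11.4 CPM of Ankrd37 in HFD_EXE, HFD_sed and S. T cells had 1.97, 10.2 and 3.61 CPM, close to their Egln3 levels. Neutrophils had 7.17, 45.9 and 9.06 CPM, conventional dendritic cells 2.82, 16.3 and 2.13 CPM, and Kupffer cells 0.977, 5.09 and 0.797 CPM in the same order. In none of the 8 classes did the HFD_EXE or the S level reach that of HFD_sed.

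**Figure D2:**
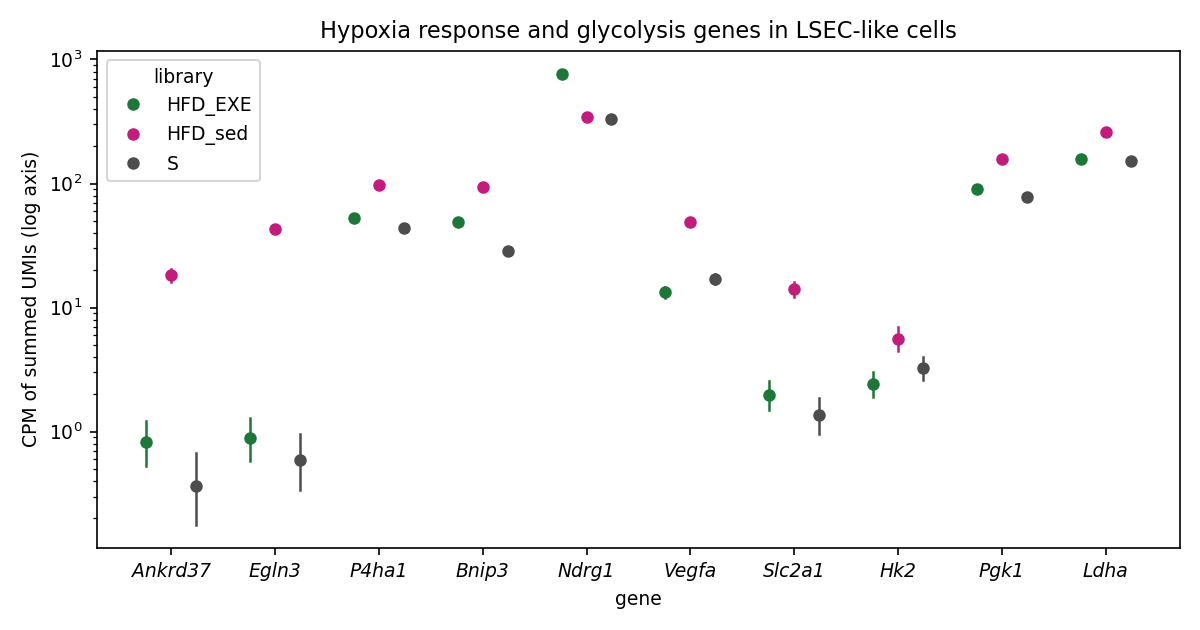
Levels of the 10 genes in LSEC-like cells, in CPM on a log axis, for HFD_EXE, HFD_sed and S (1 library each); bars are 95% Poisson intervals. Ankrd37 and Egln3 lie below 1 in HFD_EXE and S and at 18.2 and 43.0 in HFD_sed, and Ndrg1 is the one gene whose HFD_EXE point lies above both of its others.

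P4ha1, the catalytic subunit of the enzyme that hydroxylates prolines in collagen, was detected in every class and library. LSECs had 52.9 CPM in HFD_EXE, 96.9 CPM in HFD_sed and 43.5 CPM in S, and monocytes had 64.3, 119 and 45.0 CPM. Neutrophils had 17.4 CPM in HFD_EXE, 60.9 CPM in HFD_sed and 12.4 CPM in S, a 4.92-fold higher level in HFD_sed than in S. B cells had 9.88, 27.8 and 11.1 CPM in HFD_EXE, HFD_sed and S, and T cells 19.7, 37.5 and 20.3 CPM. P4ha1 was called lower for HFD_EXE over HFD_sed in 7 of 8 classes and higher for HFD_sed over S in 7 of 8. The class without a call in either comparison was Kupffer cells, with 103, 125 and 91.3 CPM in HFD_EXE, HFD_sed and S. Bnip3, a mitochondrial outer membrane protein that promotes mitophagy, was called in fewer classes. LSECs had 49.3, 94.2 and 28.4 CPM, other vascular endothelium 61.3, 118 and 33.4 CPM, neutrophils 60.9, 95.7 and 57.7 CPM, and monocytes 29.2, 59.3 and 21.1 CPM in HFD_EXE, HFD_sed and S. In the T, Kupffer, B and conventional dendritic classes it lay between 7.39 and 23.6 CPM in the 3 libraries with no call between HFD_EXE and HFD_sed or between HFD_sed and S. In LSECs Bnip3 was 1 of 3 genes called higher for HFD_EXE over S as well, by 1.73-fold.

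Vegfa encodes the secreted growth factor that acts on the receptors Flt1 and Kdr of endothelial cells. LSECs of HFD_EXE had 13.3 CPM (12.05 to 14.7), those of HFD_sed 48.8 CPM (45.3 to 52.6) and those of S 17.0 CPM (15.5 to 18.6). The HFD_EXE level was 3.67-fold lower than that of HFD_sed, and the HFD_sed level 2.87-fold higher than that of S. Neutrophils had 30.2 CPM in HFD_EXE, 144 CPM in HFD_sed and 39.1 CPM in S. Monocytes had 2.19 CPM in HFD_EXE (0.452 to 6.41, from 3 UMIs), 28.4 CPM in HFD_sed (297 UMIs) and 7.97 CPM in S (14 UMIs). On the log2 scale, the ratio for HFD_EXE over HFD_sed was -3.69 in monocytes, -2.25 in neutrophils and -1.88 in LSECs. The monocyte ratio rests on 3 UMIs in HFD_EXE and reached the minimum count through HFD_sed. Whether these ratios differ was not tested. Kupffer cells had another order, with 9.19 CPM in HFD_EXE, 9.81 CPM in HFD_sed and 2.53 CPM in S, so that both HFD libraries stood above S. Other vascular endothelium had 22.6, 38.0 and 28.1 CPM, and T, B and conventional dendritic cells had between 1.72 and 5.86 CPM in the 3 libraries.

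Slc2a1, the glucose transporter GLUT1, had its largest ratios in LSECs, where it had 1.97 CPM in HFD_EXE, 14.1 CPM in HFD_sed and 1.36 CPM in S. The log2 ratio was -2.84 (-3.28 to -2.42) for HFD_EXE over HFD_sed and 3.38 (2.87 to 3.92) for HFD_sed over S. Neutrophils had 70.6, 97.3 and 46.2 CPM and monocytes 33.6, 66.6 and 21.6 CPM in HFD_EXE, HFD_sed and S, so that HFD_EXE lay between the others in both. Conventional dendritic cells had 8.46, 19.7 and 9.06 CPM, and other vascular endothelium had 4.38, 14.6 and 5.21 CPM. Kupffer cells had 15.1, 13.4 and 8.77 CPM, again with both HFD libraries above S. B cells had 17.6, 22.7 and 20.4 CPM with no call in any comparison.

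Pgk1, which makes the first ATP of glycolysis, and Ldha, the muscle-type lactate dehydrogenase subunit that turns pyruvate into lactate, were detected in every class. Both genes have near-identical pseudogene copies in the mouse genome, so how the counting divided their reads is uncertain. LSECs had 90.6 CPM of Pgk1 in HFD_EXE, 157 CPM in HFD_sed and 77.4 CPM in S, a log2 ratio of -0.79 for HFD_EXE over HFD_sed and of 1.02 (0.93 to 1.10) for HFD_sed over S. With an estimate of free RNA subtracted, the first ratio turned to 0.11 and the second shrank to 0.13, and neither was called. Neutrophils had 111, 282 and 102 CPM of Pgk1 and monocytes 223, 436 and 192 CPM in HFD_EXE, HFD_sed and S. Kupffer cells, with 166, 157 and 97.1 CPM, had close levels in the HFD libraries and a lower one in S. With free RNA subtracted, the Kupffer ratio of HFD_sed over S turned from 0.70 to -3.86, where the estimate of free RNA had run into its upper limit of 90%. LSECs had 159, 259 and 151 CPM of Ldha in HFD_EXE, HFD_sed and S, and monocytes 284, 498 and 232 CPM. In B cells both genes were level across the libraries: Ldha had 99.9, 103 and 102 CPM and Pgk1 57.1, 62.2 and 53.6 CPM.

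Ndrg1, a cytoplasmic stress-response protein whose transcript is induced by low oxygen and by several other stimuli, stood higher in HFD_EXE. LSECs of HFD_EXE had 763 CPM (753 to 773), those of HFD_sed 347 CPM (338 to 357) and those of S 329 CPM (322 to 336). The log2 ratio was 1.14 (1.09 to 1.18) for HFD_EXE over HFD_sed and 0.08 (0.03 to 0.13) for HFD_sed over S, the only member in this class that was not called higher for HFD_sed over S. Other vascular endothelium had 587, 248 and 298 CPM in HFD_EXE, HFD_sed and S. Kupffer cells had 119 CPM in HFD_EXE, 40.7 CPM in HFD_sed and 19.8 CPM in S, a 2.93-fold higher level in HFD_EXE than in HFD_sed. Neutrophils had 149, 60.9 and 58.6 CPM, conventional dendritic cells 129, 36.8 and 61.8 CPM, monocytes 81.9, 41.5 and 68.3 CPM, and T cells 34.2, 10.0 and 15.4 CPM in the same order. B cells, with 46.7, 32.9 and 43.9 CPM, were the class without a call for HFD_EXE over HFD_sed. For HFD_sed over S, Ndrg1 was called lower in T cells (-0.63), monocytes (-0.72) and conventional dendritic cells (-0.75) and higher in Kupffer cells (1.04). The Kupffer call was lost when doublets were kept (0.19), at a clustering resolution of 0.5 (0.40) and when each library was clustered on its own (0.33). The monocyte call was lost when each cell weighed the same (-0.32) and when each library was clustered on its own (-0.33).

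RNA of the LSEC markers also differed between the libraries in the classes that are not endothelial. The summed level of the 8 LSEC markers was 1385, 583 and 596 CPM in neutrophils, 1963, 464 and 2481 CPM in monocytes, 783, 273 and 537 CPM in T cells, and 1859, 474 and 962 CPM in conventional dendritic cells of HFD_EXE, HFD_sed and S. Kupffer cells had 3485, 2374 and 2650 CPM and B cells 985, 871 and 1762 CPM. None of the 8 markers was at 0 in any class or library. For HFD_EXE over HFD_sed, 6 of the 8 markers were called higher in neutrophils (18.0% of all measured genes). All 8 were called higher in monocytes (11.9%), T cells (9.3%) and conventional dendritic cells (11.4%). Kupffer cells had 4 of 8 higher (8.46%), B cells 1 of 8 (4.1%) and LSECs 0 of 8 (8.41%). The sums, like Ndrg1, were thus higher in HFD_EXE than in HFD_sed in these 6 classes. Against S the orders were not the same. In monocytes and B cells the marker sum was highest in S while Ndrg1 was highest in HFD_EXE. In Kupffer cells the sum was lower in HFD_sed than in S while Ndrg1 was higher. By single markers, 4 of the 8 were called higher there (9.32% of all measured genes) and 1 lower (5.55%) for HFD_sed over S. The median log2 ratio of these Kupffer markers was 0.47, the same direction as Ndrg1. The endothelial receptor gene Kdr had 269, 64.1 and 68.6 CPM in neutrophils of HFD_EXE, HFD_sed and S. With free RNA subtracted, the Ndrg1 ratio of HFD_EXE over HFD_sed was 0.28 in LSECs, -0.89 in Kupffer cells and -4.21 in neutrophils, and none of these was called higher. In Kupffer cells the estimate of free RNA had run into its upper limit of 90%. The profile of free RNA came from all barcodes of a library, cells included, since no empty droplets were at hand. The part of endothelial RNA in the Ndrg1 levels of the immune classes was not tested. Nor was the part of the marker sums that came from the immune cells' own transcripts, for example of Fcgr2b or Mrc1.

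Hk2, a hexokinase that phosphorylates glucose at the entry to glycolysis, had lower levels in HFD_EXE. Kupffer cells had 45.7 CPM in HFD_EXE, 84.6 CPM in HFD_sed and 139 CPM in S. The median depth of these Kupffer cells was 3652, 2205 and 10349.5 UMIs in HFD_EXE, HFD_sed and S. The part of depth in the Kupffer differences was not tested. Monocytes had 39.5 CPM in HFD_EXE, 132 CPM in HFD_sed and 100.2 CPM in S. Neutrophils had 10.2 CPM in HFD_EXE, 39.6 CPM in HFD_sed and 41.0 CPM in S. In T cells the levels were 1.48, 8.19 and 10.8 CPM, in B cells 1.65, 6.00 and 6.57 CPM and in conventional dendritic cells 44.6, 84.3 and 101 CPM in HFD_EXE, HFD_sed and S. HFD_EXE was the lowest library in each of these 6 classes, and Hk2 was called lower in 7 of the 7 classes with enough UMIs for HFD_EXE over HFD_sed, by 3.86-fold in neutrophils and 3.35-fold in monocytes. T cells had 6, 77 and 66 UMIs and B cells 3, 19 and 19 UMIs of Hk2 in HFD_EXE, HFD_sed and S. These 2 classes reached the minimum mainly through the libraries with the higher level. For HFD_EXE over S it was called lower in 6 of 7 classes, and these 6 were all of the lower calls among the 10 genes in that comparison. The exception was LSECs, with 2.43, 5.59 and 3.27 CPM in HFD_EXE, HFD_sed and S. For HFD_sed over S, Hk2 was lower in Kupffer cells (log2 ratio -0.71, -0.91 to -0.52) and higher in LSECs (0.77, 0.32 to 1.22). With free RNA subtracted, the low T and B cell ratios changed sign: HFD_EXE over HFD_sed was 1.23 in T cells and 0.86 in B cells.

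**Figure D3:**
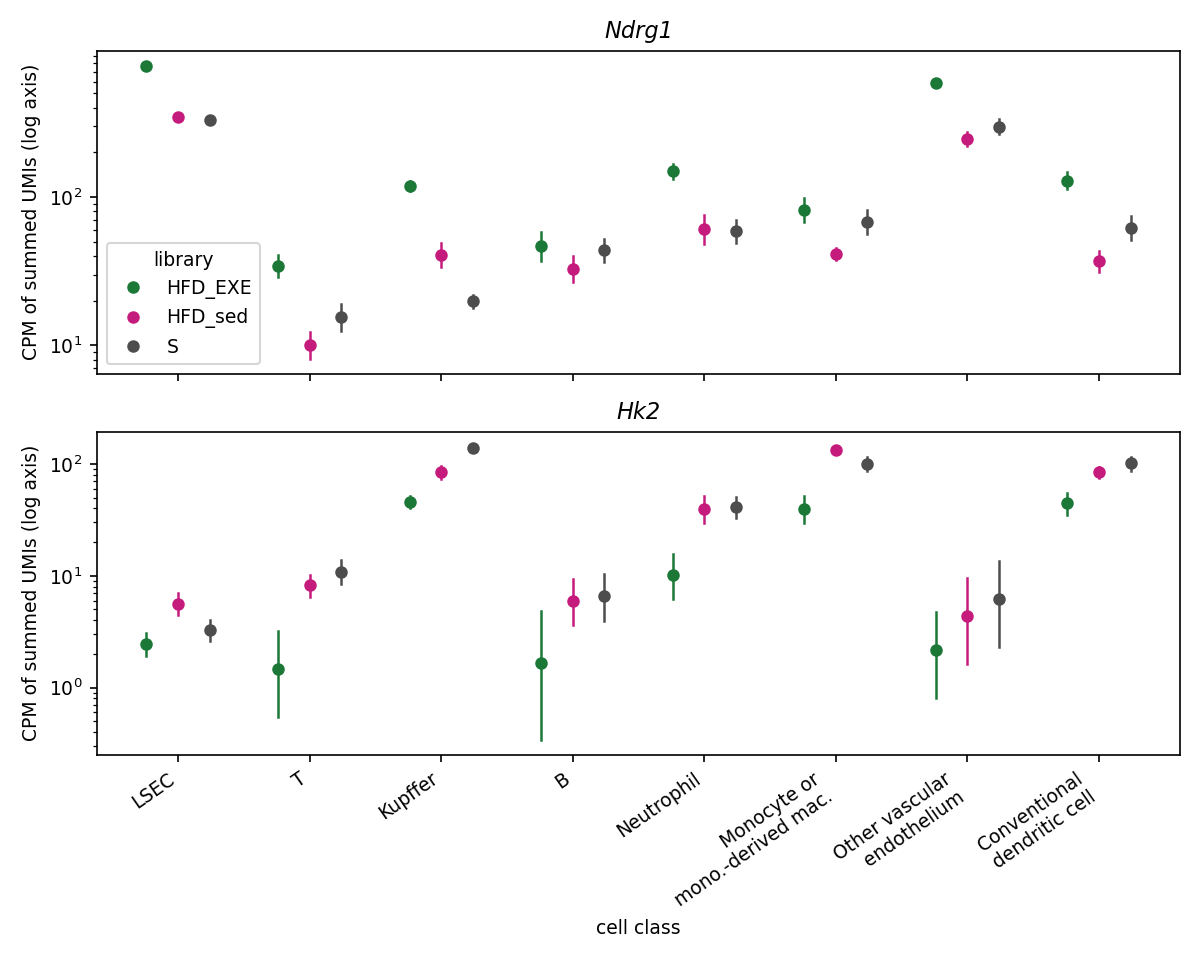
Levels of Ndrg1 and Hk2 by cell class in HFD_EXE, HFD_sed and S, in CPM on a log axis; bars are 95% Poisson intervals and each point is 1 library. The HFD_EXE point is the highest for Ndrg1 in 8 of 8 classes, and it lies below HFD_sed for Hk2 in all of them.

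Counted by class, LSECs, neutrophils, monocytes and other vascular endothelium held most of the calls; the share of all measured genes called in the same direction stands in brackets. For HFD_EXE over HFD_sed, LSECs had 9 of the 10 genes lower (12.3%) and 1 higher (8.41%), with a median of -1.07 on the log2 scale for the 10 genes and -0.06 for all genes. Neutrophils had 8 of 10 lower (12.9%) and 1 higher (18.0%), monocytes 9 of 10 lower (4.25%) and 1 higher (11.9%), and other vascular endothelium 7 of 9 lower (10.6%) and 1 higher (7.59%). The higher gene was Ndrg1 in each of these classes. Fewer were lower in T cells, 4 of 10 (8.56%) with 1 higher (9.3%), and in conventional dendritic cells, 4 of 8 (5.05%) with 1 higher (11.4%). B cells had 3 of 8 lower (5.82%) and 0 higher (4.1%). Kupffer cells had 1 of 8 lower (6.7%), which was Hk2, and 1 higher (8.46%), which was Ndrg1, so that their counts lay near the background.

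The calls for HFD_sed over S were spread over the same classes. LSECs had 9 of 10 genes higher (14.8%) and 0 lower (9.27%), with a median of 1.34 on the log2 scale for the 10 genes against 0.07 for the 14725 genes measured there. Neutrophils had 8 of 10 higher (15.6%) and 0 lower (17.1%), monocytes 8 of 10 higher (7.63%) and 1 lower (18.3%), and other vascular endothelium 7 of 9 higher (10.9%) and 0 lower (6.54%). The 1 lower gene of the monocytes was Ndrg1. Kupffer cells had 5 of 9 higher (9.32%) and 1 lower (5.55%), T cells 4 of 10 higher (10.2%) and 1 lower (10.4%), and conventional dendritic cells 3 of 9 higher (5.79%) and 1 lower (8.53%). B cells had 2 of 9 higher (5.72%), Ankrd37 and P4ha1, and 0 lower (9.16%), with a median of 0.02.

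Between HFD_EXE and S fewer pairs were called: 67 had enough UMIs, and 14 were higher and 6 lower. In LSECs 3 of 10 were higher (9.21%) and 0 lower (8.42%), namely Ndrg1 by 2.32-fold, Bnip3 by 1.73-fold and Ankrd37 with a log2 ratio of 1.16 (0.05 to 2.38) from 25 and 10 UMIs. Kupffer cells had 4 of 9 higher (13.7%) and 1 lower (8.92%). The higher ones were Ndrg1 by 6.03-fold, Vegfa, with a log2 ratio of 1.86, Slc2a1 (0.78) and Pgk1 (0.77), and the lower one was Hk2. Other vascular endothelium had 3 of 7 higher (8.15%) and 0 lower (7.65%), neutrophils 2 of 10 higher (11.5%) and 1 lower (6.95%), conventional dendritic cells 1 of 7 higher (10.0%) and 1 lower (5.09%), and T cells 1 of 9 higher (6.37%) and 1 lower (5.22%). In monocytes 0 of 7 were higher (5.67%) and 1 lower (8.38%), and in B cells 0 of 8 were higher (4.01%) and 1 lower (9.23%). Ndrg1 made up 6 of the 14 higher calls and Hk2 all 6 lower ones.

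The LSEC class was made of clusters that mostly held 1 library each, and such a cluster may be the library rather than a type of cell. Cluster 0 held 5052 of the 5474 LSECs of HFD_EXE (92.3%), cluster 2 held 2210 of the 2482 of HFD_sed (89.0%), and cluster 1 held 3157 of the 3228 of S (97.8%). The 8 LSEC markers were detected in each of them, but the 10 leading genes of cluster 0 held Ednrb, a marker listed for other vascular endothelium, and no LSEC marker; Ndrg1 was also among them. Compared by cluster number, Egln3 had 0.877 CPM in cluster 0 of HFD_EXE, 45.0 CPM in cluster 2 of HFD_sed and 0.598 CPM in cluster 1 of S, and Ndrg1 had 769.5, 349.7 and 329 CPM. The calls were those of the class, 9 of 10 lower for cluster 0 over cluster 2 (12.5% of all measured genes) and 9 of 10 higher for cluster 2 over cluster 1 (14.6%). Within a cluster the medians over the genes with enough UMIs were smaller in size. For HFD_EXE over HFD_sed, the median was -0.51 in cluster 0 and -0.69 in cluster 2, against -1.07 in the class. All 10 genes had enough UMIs in each. For HFD_sed over S, the median was 0.53 in cluster 1 (9 genes) and 0.50 in cluster 0 (5 genes). In the class it was 1.34 (10 genes). The medians for HFD_sed over S thus rest on different sets of genes and are not directly comparable. The 5052 HFD_EXE cells of cluster 0 had 0.877 CPM of Egln3 and 0.842 CPM of Ankrd37, against 12.7 and 1.42 CPM in the 190 HFD_sed cells, and 1 of 10 genes was called lower for HFD_EXE over HFD_sed (5.85% of all measured genes in that cluster). The 121 HFD_EXE cells of cluster 2 had 2.37 CPM of Egln3, against 45.0 CPM in the 2210 HFD_sed cells, and 6 of 10 were called lower there (5.52%). The 74 HFD_sed cells of cluster 1 had 20.7 CPM of Egln3, against 0.598 CPM in the 3157 S cells, and 1 of 9 genes was called higher (6.3%). In the groups of 74, 121 and 190 cells, these Egln3 and Ankrd37 levels rest on few UMIs and are imprecise.

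Neutrophils of HFD_sed fell into clusters with different levels. Cluster 20 held 297 of the 479 (62.0%), and its leading genes were Acod1, Il36g, Slc7a11 and Cxcl2. In those cells Vegfa had 218 CPM, Egln3 115 CPM, Ankrd37 61.4 CPM and Pgk1 342 CPM. The 182 HFD_sed neutrophils in cluster 8 had 30.1 CPM of Vegfa, against 28.6 CPM in the 598 HFD_EXE cells and 31.6 CPM in the 647 S cells of that cluster. Egln3 there had 19.04, 10.0 and 20.7 CPM in HFD_EXE, HFD_sed and S, so the higher neutrophil levels of these genes in HFD_sed lay in cluster 20. Ankrd37 and Pgk1 still stood higher in HFD_sed within cluster 8, with 7.40, 22.1 and 8.88 CPM and with 110.0, 191 and 103 CPM in HFD_EXE, HFD_sed and S. Within cluster 8, 3 of 10 genes were called lower for HFD_EXE over HFD_sed (5.19% of all measured genes in that cluster) and 3 of 10 higher for HFD_sed over S (6.11%).

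**Figure D4:**
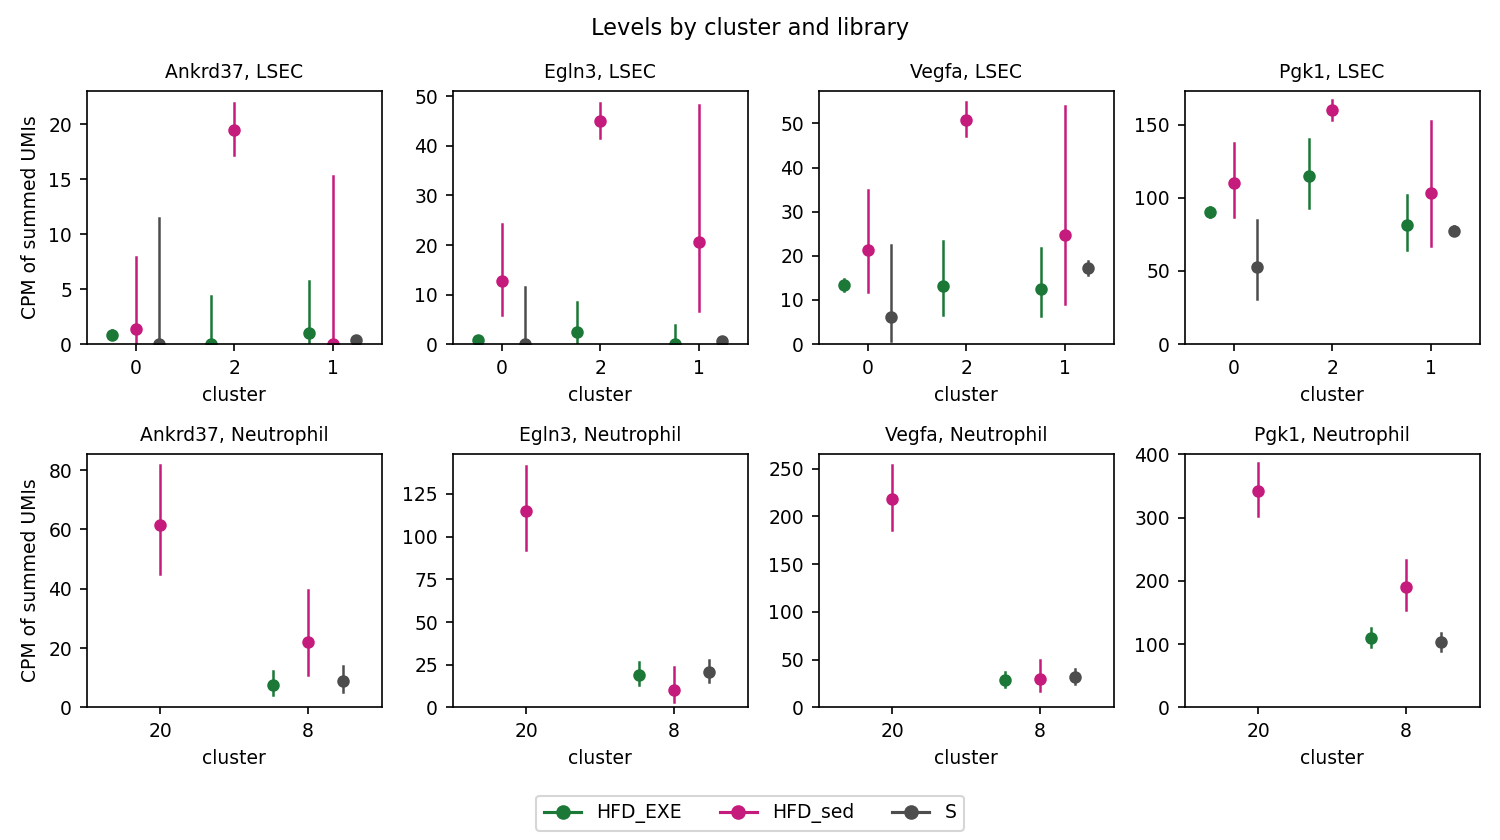
Levels of Ankrd37, Egln3, Vegfa and Pgk1 in LSEC-like clusters 0, 2 and 1 and neutrophil-like clusters 20 and 8, in CPM on a linear axis, by library where a cluster had at least 50 of its cells; bars are 95% Poisson intervals. In HFD_sed, Egln3 has 45.0 in LSEC cluster 2 and 115 in neutrophil cluster 20, against 10.0 in neutrophil cluster 8.

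In monocytes the calls lay mainly in cluster 9, with 92 cells of HFD_EXE, 1092 of HFD_sed and 84 of S, where 9 of 10 genes were called lower for HFD_EXE over HFD_sed (4.65% of all measured genes) and 8 of 10 higher for HFD_sed over S (7.01%). In cluster 19, with 58, 179 and 114 cells, 1 of 7 was called higher (5.64%) and 2 of 7 lower (13.9%) for HFD_sed over S. Kupffer cells of S were mostly in cluster 4 and those of both HFD libraries mostly in cluster 6. Cluster 4 held 57, 95 and 1901 cells and cluster 6 held 978, 597 and 51 cells of HFD_EXE, HFD_sed and S. Within cluster 4, Ndrg1 had 39.0, 18.8 and 19.3 CPM in HFD_EXE, HFD_sed and S, and within cluster 6 it had 126, 46.6 and 59.0 CPM, so that HFD_EXE stood highest in both and HFD_sed did not stand above S. Hk2 had 64.9, 75.4 and 139 CPM in cluster 4 and 44.2, 87.1 and 81.2 CPM in cluster 6. By these point values, the Hk2 level of HFD_sed was lower than that of S within cluster 4 and not within cluster 6. The groups of 51, 57 and 95 cells are small, so the Ndrg1 and Hk2 orders within these clusters are uncertain. T cells were split by library too: cluster 5 held 10.4% of those of HFD_EXE, 59.8% of those of HFD_sed and 6.66% of those of S, and cluster 11 held 48.5%, 4.90% and 42.6%. Within cluster 5, 1 of 8 genes was called higher for HFD_sed over S (5.65% of all measured genes), with a median of -0.037. Within clusters 10, 11 and 12 the counts called higher were 3 of 9 (5.54%), 2 of 6 (6.47%) and 2 of 9 (12.2%), with medians of 0.35, 0.34 and 0.095. Called lower were 0 of 8 in cluster 5, 1 of 9 in cluster 10, 0 of 6 in cluster 11 and 2 of 9 in cluster 12. Cluster 12 thus had as many genes lower as higher. The share of all measured genes called lower is not given for these clusters, so the lower counts cannot be set against a background.

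The number of cells with a UMI was compared after every cell was thinned to 1500 UMIs. That left 4910 LSECs of HFD_EXE, 2314 of HFD_sed and 3186 of S and dropped 564, 168 and 42 shallower ones; before thinning their median depths were 5338.5, 5427 and 7579.5 UMIs. Egln3 was found in 0.163% of thinned LSECs in HFD_EXE, 5.66% in HFD_sed and 0.0314% in S (0.420%, 17.3% and 0.465% unthinned). In B cells, whose median depths were 3439.5, 2858 and 3652.5 UMIs, it was found in 0%, 0.209% and 0% of thinned cells. The shares in HFD_EXE and S were near those of B cells. At this depth most cells have no UMI of a gene of this level even where all of them express it, so the shares do not show in how many cells the level lay. Vegfa was found in 2.02%, 6.18% and 2.89% of thinned LSECs in HFD_EXE, HFD_sed and S, against 0%, 0.314% and 0.591% of thinned B cells. Ndrg1 was found in 65.1%, 39.5% and 36.5% of thinned LSECs (87.1%, 73.0% and 82.2% unthinned), against 5.56%, 3.56% and 3.40% of thinned B cells. Ankrd37 was not more frequent in LSECs than in B cells: it was in 0.0815%, 2.94% and 0.0942% of thinned LSECs and in 1.07%, 4.50% and 2.07% of thinned B cells. B cells had 6.59, 34.4 and 11.4 CPM of Ankrd37 in HFD_EXE, HFD_sed and S. They are therefore no background for this gene, and what part of its LSEC levels is background was not tested. In neutrophils Egln3 was found in 3.67%, 10.0% and 3.04% of thinned cells of HFD_EXE, HFD_sed and S.

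Other genes of the same pathways were less uniform than the 10. Of 20 further hypoxia-response genes, 19 were measured in LSECs for HFD_EXE over HFD_sed, and 2 were called higher (8.41% of all measured genes) and 6 lower (12.3%), with a median of -0.28 on the log2 scale. The lower ones included Mxi1, a Myc antagonist, with 24.2 CPM in HFD_EXE and 62.4 CPM in HFD_sed. The higher ones were P4ha2, the sister subunit of P4ha1, with 27.4 CPM in HFD_EXE and 8.87 CPM in HFD_sed, and Ddit4, an inhibitor of mTOR signalling, with 154 and 62.3 CPM. For HFD_sed over S, 8 of 19 were called higher (14.8% of all measured genes) and 1 lower (9.27%), with a median of 0.42. Adm, the vasodilator adrenomedullin, had 104 CPM in HFD_sed and 31.7 CPM in S, and the lactate exporter Slc16a3 had 8.87 and 2.06 CPM. P4ha2 was the lower one, with 8.87 CPM in HFD_sed and 26.2 CPM in S, the opposite of P4ha1. Ddit4 thus had another order in LSECs, with 154 CPM in HFD_EXE, 62.3 CPM in HFD_sed and 21.0 CPM in S.

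Of 23 further glycolysis genes, 20 were measured in LSECs for HFD_EXE over HFD_sed, with 2 called higher and 3 lower, shares near those of all measured genes (8.41% and 12.3%). The 3 lower ones were the monocarboxylate transporter Slc16a1 (12.7 CPM in HFD_EXE and 34.2 CPM in HFD_sed), the phosphofructokinase Pfkl (31.2 and 62.9 CPM) and the triose phosphate isomerase Tpi1 (51.6 and 92.8 CPM). For HFD_sed over S, 6 of 18 were called higher (14.8%) and 1 lower (9.27%); Slc16a1 had 34.2 CPM in HFD_sed and 5.40 CPM in S, Pfkl 62.9 and 25.2 CPM, Tpi1 92.8 and 42.4 CPM, and the pyruvate kinase Pkm 267 and 165 CPM. In neutrophils 7 of 13 were called higher (15.6%) and 3 lower (17.1%) for HFD_sed over S, the higher ones including Tpi1 (126 and 40.5 CPM) and Pgam1 (305 and 116 CPM). The lower ones included the glucose transporter Slc2a3, with 217 CPM in HFD_sed and 416 CPM in S, where Slc2a1 was higher in HFD_sed. The neutrophil Gpi1 level was also lower, with 177 and 326 CPM. In monocytes 7 of 18 were called higher (7.63%) and 2 lower (18.3%) for HFD_sed over S, with 325 and 141 CPM of Tpi1, and with 43.4 and 128 CPM of the enolase Eno3 on the lower side. Both lists were assembled with earlier results of these data known.

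The oxygen-sensing genes mostly had no call in LSECs. Of 7 measured oxygen-sensing genes, 1 was called higher for HFD_sed over S, near the share of all measured genes (14.8%). This was Hif1a, with 148 CPM in HFD_sed and 96.5 CPM in S. Vhl was the 1 called lower for HFD_EXE over HFD_sed (12.3% of all measured genes), with 13.1 and 21.7 CPM. Of 7 measured VEGF-pathway genes, Vegfc, the lymphatic growth factor, had 2.27 CPM in HFD_EXE, 19.4 CPM in HFD_sed and 2.83 CPM in S, the same order as Vegfa. Its receptor Flt4 had 1136 CPM in HFD_EXE and 711 CPM in HFD_sed. The co-receptor Nrp1 had 1452, 920.3 and 1385 CPM in HFD_EXE, HFD_sed and S, with HFD_sed the lowest. Vegfc, Flt4 and Nrp1 thus differed by at least 1.5-fold between HFD_EXE and HFD_sed. The number of VEGF-pathway genes called is not given here.

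Immediate early genes and heat shock genes, which respond to many stimuli including tissue dissociation, were also higher in HFD_sed in most classes. The summed immediate early level was highest in HFD_sed in LSECs, monocytes, T cells, B cells, conventional dendritic cells and other vascular endothelium. In LSECs the sum was 4239 CPM in HFD_EXE, 7764 CPM in HFD_sed and 3074 CPM in S. There, 10 of 13 immediate early genes were called lower for HFD_EXE over HFD_sed (12.3% of all measured genes). For HFD_sed over S, 11 of 13 were called higher (14.8%). In monocytes it was 8207, 16006 and 9330 CPM in HFD_EXE, HFD_sed and S. The exceptions were neutrophils, with 31488, 29660 and 24201 CPM, and Kupffer cells, with 6819, 7382 and 8500 CPM. The summed heat shock level was highest in HFD_sed in 8 of 8 classes. It was 791, 1071 and 788 CPM in LSECs, 1304, 2063 and 1461 CPM in monocytes, and 528, 752 and 495 CPM in neutrophils of HFD_EXE, HFD_sed and S. In LSECs 3 of 10 heat shock genes were called lower for HFD_EXE over HFD_sed (12.3% of all measured genes) and 5 of 10 higher for HFD_sed over S (14.8%). None of the listed genes was at 0 in these classes. Their part in the member levels was not tested, and with 1 library per group a difference of diet or exercise cannot be told apart from one of animal, dissociation or batch.

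Among 6242 genes outside the lists with at least 50 CPM in some class and library, the 5 whose log2(CPM + 1) followed the mean of the 10 genes most closely were Olr1, Gbp2, Cxcl10, Ccrl2 and Nfe2l2. Pearson's r was 0.86, 0.84, 0.81, 0.81 and 0.78 over the 24 points of 8 classes and 3 libraries, which share libraries and depth and are not independent. Olr1, the oxidised lipoprotein receptor LOX-1, had 8.19 CPM in HFD_EXE, 61.7 CPM in HFD_sed and 11.4 CPM in S in neutrophils, and 0.855, 7.43 and 0.257 CPM in LSECs. Ccrl2, an atypical chemerin receptor, had 466, 2470 and 370.3 CPM in neutrophils, and Gbp2, an interferon-induced GTPase, had 95.7, 554 and 99.1 CPM. Of the 10 genes themselves, each set against the mean of the other 9, Pgk1 followed the others most closely (r = 0.79), then Egln3 (0.73) and Bnip3 (0.67). Hk2 (0.26) and Ndrg1 (0.014) followed them least.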

How the data were processed

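The deposited matrices of HFD_EXE, HFD_sed and S hold raw counts, whole UMIs for each gene and barcode; Cell Ranger 6.1.2 and the build GRCm39 are named in the submitters' processing notes, and cell names were assigned here. The members, lists and thresholds were chosen with earlier results of these data known. Barcodes passed with 500 or more UMIs, 300 or more genes and a mitochondrial share below 15%: 10467 of HFD_EXE, 11068 of HFD_sed and 10615 of S. Scrublet scores were computed per library in scanpy 1.11.5; since the automatic threshold marked no cell of HFD_EXE, the mean of the other libraries' thresholds (0.219) removed 295 cells of HFD_EXE, 328 of HFD_sed and 403 of S. The 3 libraries were clustered jointly and without batch integration (2000 variable genes, 30 components, 15 neighbours, Leiden resolution 1.0), with 70 members and listed pathway genes left out. A cell type's name was given to a cluster when at least 3 of its fixed markers passed. A marker passed when it was found in at least 0.2 of the cluster's cells. Its mean there also had to exceed the median of the cluster means by at least 1 on the log2 scale. This scoring was set after the clusters had been seen. Clusters with markers of several types or too few markers stayed unnamed, and 183 mixed cells of HFD_EXE, 51 of HFD_sed and 1406 of S were set aside.

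UMIs were summed per class and library and expressed as CPM, the ratio of 2 libraries got an exact conditional binomial interval, and the same rule for calls was applied to all measured genes. No test across libraries was possible. The calculation was tested on simulated data. Named beyond the 10 genes were up to 4 genes per list, class and comparison with the counting-interval bound farthest from no difference, and the 5 most similar genes. Alternatives covered the filters, doublets, clustering, scaling, cell weighting, free RNA, the minimum count and the fold; clustering each library on its own was added after seeing the data. Promoter letters were searched in RefSeq tables. Python 3.11.15, numpy 2.4.6, scipy 1.17.1, pandas 2.3.3, leidenalg 0.10.2 and matplotlib 3.10.9 were used.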

Additional observations from a re-analysis of the deposited data

Results flagged for a closer look

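For HFD_sed over S, Hk2 stood higher in LSECs (log2 ratio 0.77, from 5.59 CPM in HFD_sed and 3.27 CPM in S) and lower in Kupffer cells (-0.71, from 84.6 CPM in HFD_sed and 139 CPM in S). The difference between the classes is 1.49 on the log2 scale; it was singled out because the ratios have opposite signs, and it was not tested, since each group is 1 library. Within Kupffer cluster 4 Hk2 had 75.4 CPM in HFD_sed and 139 CPM in S, and within cluster 6 it had 87.1 and 81.2 CPM. Cluster 4 held 95 cells of HFD_sed and cluster 6 held 51 of S, so these levels rest on few cells. The median depth of Kupffer cells was 2205 UMIs in HFD_sed and 10349.5 UMIs in S.

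Ndrg1, in the same comparison, stood higher in Kupffer cells (1.04, from 40.7 CPM in HFD_sed and 19.8 CPM in S) and lower in conventional dendritic cells (-0.75, from 36.8 CPM in HFD_sed and 61.8 CPM in S), a difference of 1.79 on the log2 scale that was not tested. The Kupffer ratio was 0.19 with doublets kept. Within Kupffer cluster 4 Ndrg1 had 18.8 CPM in HFD_sed and 19.3 CPM in S, and within cluster 6 it had 46.6 and 59.0 CPM. These levels rest on only 95 HFD_sed cells in cluster 4 and 51 S cells in cluster 6. In the conventional dendritic cells, 7 of the 8 LSEC markers were called lower for HFD_sed over S as well (8.53% of all measured genes). Their part in the difference was not tested.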

How the results depend on the processing

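Over the 8 classes, the count of pairs called higher for HFD_sed over S was 46 and ranged from 37 to 48 over the alternatives, and that called lower for HFD_EXE over HFD_sed was 45 and ranged from 28, at a fold of 2, to 48. The 4 pairs called lower for HFD_sed over S became 1 with doublets kept, 1 with each cell weighing the same, 0 at a fold of 2 and 11 with free RNA subtracted. At a fold of 2, the 14 pairs called higher for HFD_EXE over S became 7, and the 9 LSEC genes lower for HFD_EXE over HFD_sed became 5. With free RNA subtracted, 0 LSEC genes were higher for HFD_EXE over HFD_sed, and 1 was lower for HFD_EXE over S. The same subtraction gave every reversed ratio: for HFD_sed over S, Pgk1 in Kupffer cells (-3.86); for HFD_EXE over HFD_sed, Pgk1 in LSECs (0.11), Hk2 in T (1.23) and B cells (0.86), and Ndrg1 in Kupffer cells (-0.89) and neutrophils (-4.21); for HFD_EXE over S, Ankrd37 in LSECs (-0.092), Hk2 in T (0.53) and B cells (0.54), and Ndrg1 in neutrophils (-0.16). It took free RNA to be 43.9% of LSEC UMIs in HFD_EXE, 66.7% in HFD_sed and 41.2% in S. In Kupffer cells it reached its limit of 90%. The estimate divided the CPM of listed hepatocyte transcripts, Apoe among them, in a class by that in all barcodes. Kupffer cells of HFD_EXE, HFD_sed and S had 16333, 15549 and 21478 CPM of this list. All barcodes had 7609, 6505 and 11909 CPM, so the subtraction is not reliable in this class. What part of the list came from the cells' own transcripts was not tested. Of 2985 single ratios, 2829 stayed within the counting interval of the reported value, 146 moved outside it and 10 reversed. Of 578 counts for the other classes, 68 moved by over 1.5 times, 16 of 42 with free RNA subtracted and 14 of 42 at a fold of 2; the B cell median of 0.02 for HFD_sed over S was -0.32 with free RNA subtracted. No paired analysis was possible because each group has 1 library; S and E share replicate number 1, but E's matrix was not used here.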

Other observations

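Hepatocyte-like, NK-like and plasmacytoid dendritic-like cells were too few in a library to be compared. The hepatocyte-like cells numbered 388 in HFD_EXE, 99 in HFD_sed and 126 in S. Bnip3 had 188, 296 and 428 CPM there, an order with S highest, whereas Ndrg1 had 279, 85.4 and 74.6 CPM, highest in HFD_EXE as in the compared classes. Egln3 had 6.92, 32.8 and 14.2 CPM in the hepatocyte-like cells of HFD_EXE, HFD_sed and S, and Ldha had 851, 824 and 868 CPM. In NK-like cells Vegfa had 12.4 CPM in HFD_EXE, 32.2 CPM in HFD_sed and 6.95 CPM in S. Plasmacytoid dendritic-like cells had 67.4, 17.6 and 11.5 CPM of Ndrg1 in HFD_EXE, HFD_sed and S.

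In Kupffer cells, 6 of 18 measured further hypoxia-response genes were called higher for HFD_EXE over HFD_sed (8.46% of all measured genes) and 0 lower (6.7%; median 0.37 on the log2 scale), with 148 CPM of Ddit4 in HFD_EXE and 32.3 CPM in HFD_sed. In neutrophils, Hmox1, the haem-degrading oxygenase, had 359 CPM in HFD_sed and 68.6 CPM in S, and Ero1a, an oxidase of the endoplasmic reticulum, had 110 and 24.3 CPM.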
